A study of Homo sapiens with 16 samples.

Results

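ABC transporters that carry drugs out of cells were examined in SH-SY5Y cells, an established human neuroblastoma cell line. The members were chosen by symbol from a list of 8 genes (ABCB1, ABCC1, ABCC2, ABCC3, ABCC4, ABCC5, ABCC10 and ABCG2), matched by Ensembl identifier to the rows of both expression tables. Of the 8 genes, 7 had a row among the 26410 genes of the tables, and ABCG2 was not analysed here. RNA was sequenced in 16 libraries from 4 clones, each grown from a single cell. All clones had received a Cas9 vector and a donor vector with GFP and puromycin markers, and had been selected in puromycin. Clones KO11 and KO28 had received a guide RNA to the calcium channel gene TRPM2 and are labelled TRPM2 KO, and clones Scr13 and Scr16 had received a scrambled guide RNA (Scr). Each clone was grown for 24 h in regular medium or in medium with doxorubicin, in 2 replicates, which gave 4 libraries in each of 4 groups. The sample labels give 0.3 µM doxorubicin, and the design text of the series gives 3 µM. Libraries held between 10481177 and 25086085 reads on genes, and 3 reads corresponded to between 0.118 and 0.285 normalized CPM, the unit used throughout (reads scaled to a common effective library size).

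The labels were compared with the data first. TRPM2 itself was measured at 1.93 and 2.23 normalized CPM in the untreated KO11 libraries and at 1.41 and 2.19 in those of KO28, against 0.118 and 0.115 in Scr13 and 0 in both Scr16 libraries. TRPM2 reads thus went against the label in untreated cells. By the study's methods the edit removed the start of the coding sequence and shifted the frame of the rest, and the clones were checked by RT-PCR and Western blot. Counts over the whole gene do not show whether the edited sequence was among the reads, so that they do not check the deletion. After doxorubicin the groups overlapped, with 0.658 to 1.83 normalized CPM in the libraries labelled TRPM2 KO and 0.0594 to 1.33 in Scr. Every direction given below is therefore that of the libraries labelled TRPM2 KO against the Scr libraries. Adrenergic neuroblastoma markers were abundant in every library, with 10 of 10 genes in the tables and a summed level of 5928 to 7269 normalized CPM, led by DBH or HAND2. TH, the first enzyme of catecholamine synthesis, was at 0 reads in 6 of the 16 libraries. The doxorubicin treatment showed in 14 of 14 listed p53 target genes, which were all higher after the drug in Scr and all higher in TRPM2 KO. In Scr, FAS met the filter of 1 normalized CPM through the treated libraries alone (untreated at most 0.984), so that its call adds nothing there. CDKN1A, which encodes the cell cycle inhibitor p21, rose from 57.0 ± 15.2 to 337 ± 25.1 normalized CPM in Scr and from 136 ± 16.5 to 736 ± 45.3 in TRPM2 KO (mean ± SD, n = 4). Between genotypes 6 of 13 p53 targets tested were higher in TRPM2 KO untreated and 12 of 14 after doxorubicin, and none was lower, beside 4.84% and 8.69% of all genes past the threshold in either direction.

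ABC transporters are membrane proteins that use the energy of ATP to move substrates across a membrane. P-glycoprotein, the product of ABCB1, exports many uncharged or positively charged drugs, doxorubicin among them, and is the best known pump of multidrug resistance. The multidrug resistance-associated proteins of subfamily C export organic anions, including drugs conjugated to glutathione, glucuronate or sulfate, and several of them export nucleotides or nucleotide analogs. In neuroblastoma, ABCB1 and ABCC1 have long been studied for their part in resistance to chemotherapy. RNA levels do not show the amount of protein or its activity at the membrane.

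ABCB1 (ENSG00000085563) is given first because it carried most of the transcript among the members. It lies on chromosome 7 on the minus strand, at chr7:87503633-87713323 of GRCh38, and shares this interval with RUNDC3B and a processed pseudogene, both on the plus strand. RefSeq gives windows before 2 start sites of the gene (GRCh38.p14), and both are printed because the counts cover the whole gene and cannot tell which start was used. The window of the start inside the gene, chr7:87600885-87601134 on the minus strand, has a GC content of 55.6%, and the one of the upstream start, chr7:87713296-87713545, has 39.2%. The sequences run 5′ to 3′ and end at the base before the start, and capitals mark CCAAT or its reverse complement ATTGG.
ABCB1 start inside the gene: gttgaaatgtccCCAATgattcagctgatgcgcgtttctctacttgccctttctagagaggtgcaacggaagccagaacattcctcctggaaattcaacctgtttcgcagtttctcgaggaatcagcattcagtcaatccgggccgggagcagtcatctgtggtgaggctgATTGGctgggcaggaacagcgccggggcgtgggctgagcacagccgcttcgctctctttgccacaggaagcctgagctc
ABCB1 upstream start: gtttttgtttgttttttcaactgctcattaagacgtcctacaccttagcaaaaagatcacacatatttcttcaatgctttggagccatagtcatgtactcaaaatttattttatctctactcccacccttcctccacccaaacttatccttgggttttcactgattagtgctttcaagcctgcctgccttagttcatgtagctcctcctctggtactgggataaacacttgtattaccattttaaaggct
The first window holds 2 such matches and the second holds 0, and 32.0% of the 35116 RefSeq windows of the same length hold at least 1. A match of these letters is a description and not a binding site. GGGCGG and its reverse complement CCGCCC, the core of a GC box, are found in 42.6% of all windows and in neither window of ABCB1.

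Levels of different genes were compared per kilobase of annotated exon. In untreated Scr cells ABCB1 stood at 66.4 ± 11.6 normalized CPM per kb (n = 4). This was above 96.3% of the 13075 genes with at least 1 normalized CPM in all 4 libraries of the group. ABCB1 made up 83.9% of the summed level of the 7 members. ABCC5, an exporter of cyclic nucleotides and folates, came next at 4.98 ± 0.298, followed by ABCC4, an exporter of cyclic nucleotides and prostaglandins, at 3.76 ± 0.0526. ABCC10, which has been linked to export of taxanes, stood at 2.94 ± 0.439 and ABCC1, the glutathione conjugate pump MRP1, at 0.927 ± 0.0672. ABCC2 and ABCC3, conjugate pumps best known from the liver, were near the detection limit at 0.104 ± 0.0471 and 0.0573 ± 0.0655, and did not differ beyond their spread. In untreated TRPM2 KO cells the first 5 places were the same and ABCB1 stood at 33.2 ± 1.62 normalized CPM per kb, 71.2% of the members' sum. After doxorubicin ABCC4 and ABCC10 could not be ordered beyond their spread in either genotype, and ABCC3 in TRPM2 KO reached 0.654 ± 0.210 per kb, the sixth place below ABCC1 at 1.01 ± 0.179. ABCB1 was thus the most abundant member by a wide margin in each of the 4 groups.

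**Figure D1:**
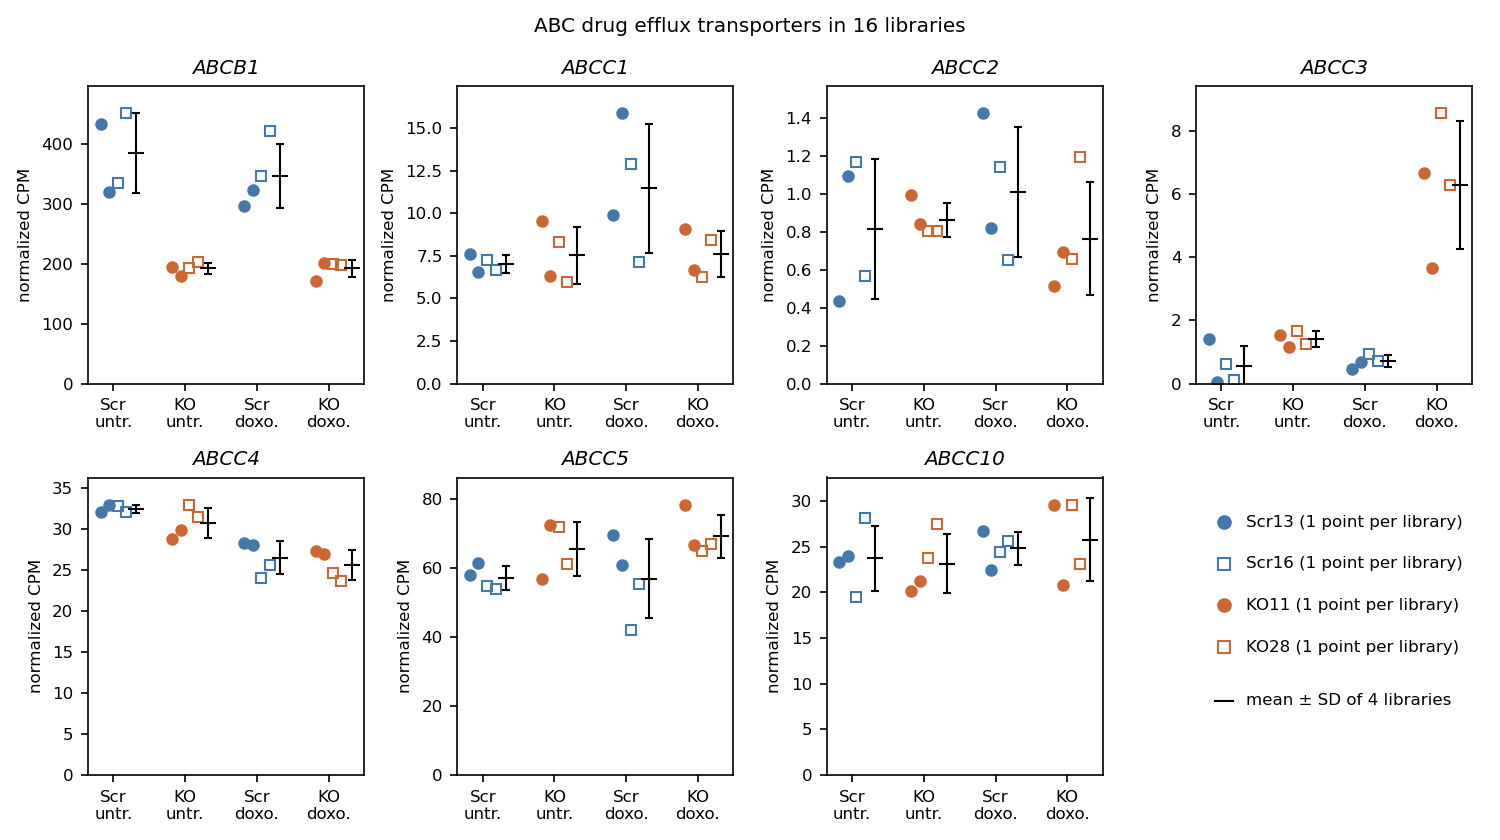
Normalized CPM of each member in 16 libraries, with 1 point per library, colour for genotype, marker for clone, and black bars for mean ± SD of 4 libraries (untr., untreated; doxo., doxorubicin). Each panel has its own axis from 0, and a bar that would reach below 0 is clipped there. The 8 libraries labelled TRPM2 KO lie below the 8 Scr libraries for ABCB1, and the 4 TRPM2 KO doxorubicin libraries lie above all others for ABCC3.

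ABCB1 was lower in the libraries labelled TRPM2 KO than in Scr, with and without doxorubicin. In untreated cells it was measured at 195 and 180 normalized CPM in KO11 and at 193 and 203 in KO28. The Scr libraries held 434 and 321 in Scr13 and 335 and 452 in Scr16. The highest TRPM2 KO library lay below the lowest Scr library, and the Scr libraries varied more, with 386 ± 67.2 against 193 ± 9.43 normalized CPM (n = 4). The difference of log2(normalized CPM + 1) was -0.98 (95% interval -1.18 to -0.78, adjusted p = 8.52e-07 by limma), and the exact two-sided permutation test gave p = 0.0286, the smallest that 4 against 4 libraries allow. TRPM2 KO cells held 50.0% of the Scr level. Of the 6 members tested, ABCB1 was the 1 that passed, beside 4.84% of all 14364 genes tested. The members' median log2 difference was 0.02 and that of all genes -0.01. In bulk RNA, fewer cells with the transcript and less transcript per cell cannot be told apart.

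After doxorubicin ABCB1 was measured at 172 and 202 normalized CPM in KO11, 200.3 and 198 in KO28, 297 and 323 in Scr13, and 346 and 422 in Scr16. The groups again did not overlap, with 193 ± 14.1 against 347 ± 53.6 normalized CPM, or 55.6% of the Scr level. The log2 difference was -0.83 (95% interval -1.02 to -0.64, adjusted p = 1.83e-06 by limma). Here 2 of the 6 members tested passed, ABCB1 lower and ABCC3 higher, beside 8.69% of 14572 genes, but ABCC3 had met the filter on low values through the TRPM2 KO libraries alone, so that its call adds nothing to this count. ABCB1 fell on the same side of the threshold with each clone left out in turn, with log2 differences of -1.02 to -0.94 untreated and -0.98 to -0.68 after doxorubicin.

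Doxorubicin itself left the ABCB1 level within the spread of the libraries in both genotypes. In Scr the level after the drug was 90.0% of the untreated one, with a log2 difference of -0.15 (95% interval -0.36 to 0.07, adjusted p = 0.390 by limma). In TRPM2 KO the means were 193 ± 14.1 and 193 ± 9.43 normalized CPM, and the log2 difference was 0.00 (95% interval -0.15 to 0.15). The response differed between genotypes by 0.15 on the log2 scale (95% interval -0.12 to 0.42, adjusted p = 0.832 by limma). With the filter, the intervals for the drug within each genotype thus reached no farther than 0.36 in either direction, and they cover the spread between libraries only. Without the filter on low values the interval in Scr was wider, at -0.45 to 0.15. In the comparisons between clones of 1 genotype, ABCB1 was 0.18 higher in Scr16 than in Scr13 (95% interval -0.03 to 0.40) and 0.09 higher in KO28 than in KO11 (95% interval -0.06 to 0.23).

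Markers of mesenchymal or substrate-adherent neuroblastoma cells moved with the genotype. Of 12 listed markers 11 had a row. Their summed level was 977 ± 95.8 normalized CPM in untreated TRPM2 KO and 704 ± 160 in untreated Scr cells. After doxorubicin it was 1050 ± 137 against 718 ± 115. The untreated groups overlapped, as the first Scr13 replicate at 920 lay within the TRPM2 KO range of 872 to 1077. The second untreated Scr13 replicate stood at 542. In untreated cells 5 of the 10 tested were higher in TRPM2 KO, among them YAP1 (log2 difference 1.91), FN1 (1.55), COL1A1 (1.52) and VIM (1.10), and TWIST1 was lower (-0.53). After doxorubicin 7 of 10 were higher, led by YAP1 (2.18), FN1 (2.14), CD44 (1.76) and FOSL1 (1.68), and TWIST1 was again lower. FOSL1 was at 0 reads in the first Scr16 doxorubicin replicate, so that it could meet the filter only with TRPM2 KO libraries. Its call thus adds nothing to the 7 of 10. Of all genes 4.84% and 8.69% passed in these comparisons. Between KO28 and KO11, 1 of 11 markers tested was higher with limma and 0 with edgeR or DESeq2, beside 0.138% of all genes. VIM was the most abundant of these markers in all 8 TRPM2 KO libraries and TWIST1 in 7 of the 8 Scr libraries. FOSL1 or COL1A2 was at 0 reads in 3 Scr libraries, and no listed marker was at 0 in a TRPM2 KO library. The summed level of the adrenergic markers was 6599 ± 474 normalized CPM in untreated TRPM2 KO and 6352 ± 434 in untreated Scr cells, and 6356 ± 293 against 6783 ± 355 after doxorubicin. Of the 9 tested, 1 was higher in TRPM2 KO (GATA3, by 0.32) and 1 lower untreated, and 0 were higher and 1 lower after doxorubicin. The part of these cells or states in the ABCB1 and ABCC3 results was not tested.

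ABCC3 (ENSG00000108846, chr17:50634777-50692252 on the plus strand, with no overlapping gene) encodes MRP3, a basolateral exporter of glucuronides and bile salts. It was high in 1 of the 4 groups, TRPM2 KO cells with doxorubicin. There it was measured at 6.65 and 3.65 normalized CPM in KO11 and at 8.57 and 6.28 in KO28, from 58 to 131 reads a library. The untreated TRPM2 KO libraries held 1.54 and 1.14 in KO11 and 1.68 and 1.24 in KO28, and the Scr libraries after doxorubicin 0.475 and 0.694 in Scr13 and 0.951 and 0.714 in Scr16. In untreated Scr cells ABCC3 was at 1.42 and 0.0576 in Scr13 and at 0.614 and 0.114 in Scr16, where 2 of the libraries held no more than 2 reads. The TRPM2 KO doxorubicin libraries overlapped with none of the other groups.

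In TRPM2 KO the mean of ABCC3 rose 4.49-fold with doxorubicin, from 1.40 ± 0.25 to 6.29 ± 2.02 normalized CPM (log2 difference 1.56, 95% interval 1.04 to 2.08, adjusted p = 5.56e-05 by limma, exact permutation p = 0.0286). It was the 1 of 6 members tested that passed there, beside 19.6% of all 14513 genes. After doxorubicin ABCC3 was 8.88-fold higher in TRPM2 KO than in Scr, where it stood at 0.708 ± 0.194 (log2 difference 2.05, 95% interval 1.41 to 2.69 without the filter). All 4 Scr libraries lay below the filter of 1 normalized CPM, so that the gene entered this comparison through the TRPM2 KO libraries alone, and the interval and the adjusted p of 0.00382 by limma are therefore those without the filter, over 25326 genes. A fold change on the log2(normalized CPM + 1) scale understates the change of a gene this low. In untreated cells ABCC3 met the filter through the TRPM2 KO libraries, and of the Scr libraries only the first Scr13 replicate reached it. The log2 difference of TRPM2 KO against Scr was 0.71 there and did not pass. Without the filter the 95% interval was 0.12 to 1.30 (adjusted p = 0.345 by limma), and with it 0.07 to 1.34 (adjusted p = 0.265 by limma). In Scr ABCC3 was below the filter, and without the filter the doxorubicin response was 0.22 (95% interval -0.39 to 0.82, adjusted p = 0.746 by limma).

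The difference of the ABCC3 response between genotypes was tested in itself, over all 16 libraries. It came to 1.35 on the log2 scale and did not pass. Of the Scr libraries only the first untreated replicate of Scr13 (1.42) reached 1 normalized CPM, so that ABCC3 met the filter through the TRPM2 KO libraries. Without the filter the 95% interval was 0.49 to 2.20 (adjusted p = 0.498 by limma, over 26365 genes). With it the interval was 0.52 to 2.17, with an unadjusted p of 0.00240 and an adjusted p of 0.280 by limma. None of the 7 members tested passed for this difference, 1 of them (ABCC3) had an unadjusted p under 0.05, and edgeR and DESeq2 on recovered reads also gave 0. Of all 15325 genes 0.0261% passed. The comparisons with doxorubicin in TRPM2 KO and between genotypes after doxorubicin share the 4 libraries in which ABCC3 was high.

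ABCC1 (ENSG00000103222, chr16:15949577-16143074, plus strand) encodes MRP1, which exports glutathione conjugates and also doxorubicin together with glutathione. It was scattered in Scr cells after doxorubicin, with 9.92 and 15.9 normalized CPM in Scr13 and 12.9 and 7.14 in Scr16. The untreated Scr libraries held 7.64 and 6.56 in Scr13 and 7.24 and 6.65 in Scr16, so that 3 of the 4 treated libraries lay above all untreated ones. The log2 difference in Scr was 0.59 (95% interval 0.13 to 1.04), and the adjusted p of 0.0850 by limma did not pass. Without the second doxorubicin replicate of Scr16 it was 0.77 and passed (adjusted p = 0.0232), and with DESeq2 on recovered reads it was 0.70 and passed (adjusted p = 0.0392). The other 13 of 15 alternatives did not pass, and without the second doxorubicin replicate of Scr13 it was 0.43 (adjusted p = 0.278). In TRPM2 KO cells ABCC1 was 7.62 ± 1.35 after doxorubicin and 7.54 ± 1.68 normalized CPM without it, a log2 difference of 0.02 (95% interval -0.40 to 0.44). After doxorubicin the genotypes differed by -0.49 (95% interval -0.96 to -0.03, adjusted p = 0.213), and the difference of the responses was -0.57 (95% interval -1.19 to 0.06, adjusted p = 0.656 by limma).

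For doxorubicin in Scr, 0 of 6 members tested passed with limma, 2 (ABCC1 and ABCC4) had an unadjusted p under 0.05, edgeR gave 0 and DESeq2 gave 1. Of all 14378 genes 12.3% passed there. ABCC4 (ENSG00000125257, chr13:95019829-95301475, minus strand) was measured at 32.1, 32.9, 32.8 and 32.0 normalized CPM in the untreated Scr libraries and at 28.3, 28.01, 24.0 and 25.6 after doxorubicin. In TRPM2 KO it was at 28.8, 29.9, 33.0 and 31.4 untreated and at 27.4, 27.0, 24.7 and 23.6 after doxorubicin. The treated and untreated libraries did not overlap in either genotype, and the exact permutation test gave p = 0.0286 in each. The log2 differences of -0.29 (95% interval -0.52 to -0.05, adjusted p = 0.103) and -0.25 (95% interval -0.50 to -0.01, adjusted p = 0.136 by limma) did not pass the adjustment over all genes. Between genotypes ABCC4 differed by -0.08 untreated and by -0.04 after doxorubicin.

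ABCC5 (ENSG00000114770, chr3:183919934-184018015, minus strand, overlapped by the antisense gene ABCC5-AS1) was at 54.0 to 61.4 normalized CPM in untreated Scr and at 56.8 to 72.5 in untreated TRPM2 KO cells. After doxorubicin it was at 69.4 and 60.9 in Scr13, 41.9 and 55.2 in Scr16, 78.3 and 66.5 in KO11, and 64.8 and 67.0 in KO28. The genotypes overlapped in both treatments, and the log2 differences were 0.19 (95% interval -0.01 to 0.39, adjusted p = 0.380) and 0.30 (95% interval 0.05 to 0.55, adjusted p = 0.153 by limma). The second of these passed without clone Scr13 (0.51, adjusted p = 0.0109) and without its first doxorubicin replicate (0.40, adjusted p = 0.0393), and shrank to 0.08 without clone Scr16 (adjusted p = 0.748) and to 0.16 without the first doxorubicin replicate of Scr16 (adjusted p = 0.402). Of 20 alternatives 2 passed, so that the size of this difference rested on which Scr libraries were kept. ABCC5 was also the member in which the Scr clones stood apart, 0.28 lower on the log2 scale in Scr16 than in Scr13 with no overlap of 4 against 4 libraries, but with an adjusted p of 0.675. Between clones of 1 genotype, 0 of 6 members tested passed with limma, edgeR or DESeq2, beside 0.0348% of genes between Scr16 and Scr13 and 0.138% between KO28 and KO11. At an unadjusted p under 0.05 there was 1 between the Scr clones and 0 between the KO clones.

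ABCC10 (ENSG00000124574, chr6:43427366-43450430, plus strand, overlapped by DLK2 and MIR6780B) was the steadiest of the members in its group means, which lay between 23.2 ± 3.25 and 25.8 ± 4.52 normalized CPM. Its log2 differences lay between -0.03 and 0.14 over both genotype and both treatment comparisons, and none passed. ABCC2 (ENSG00000023839, chr10:99782640-99852594, plus strand), the canalicular pump MRP2, was at 0.433 to 1.43 normalized CPM in all 16 libraries. It passed the filter on low values in the Scr doxorubicin comparison, where the log2 difference was 0.15 (95% interval -0.49 to 0.79), in the comparison of the Scr clones, and in the test of the difference of responses. Without the filter its log2 difference between genotypes was 0.06 untreated (95% interval -0.34 to 0.46) and -0.19 after doxorubicin (95% interval -0.63 to 0.26), and neither passed.

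**Figure D2:**
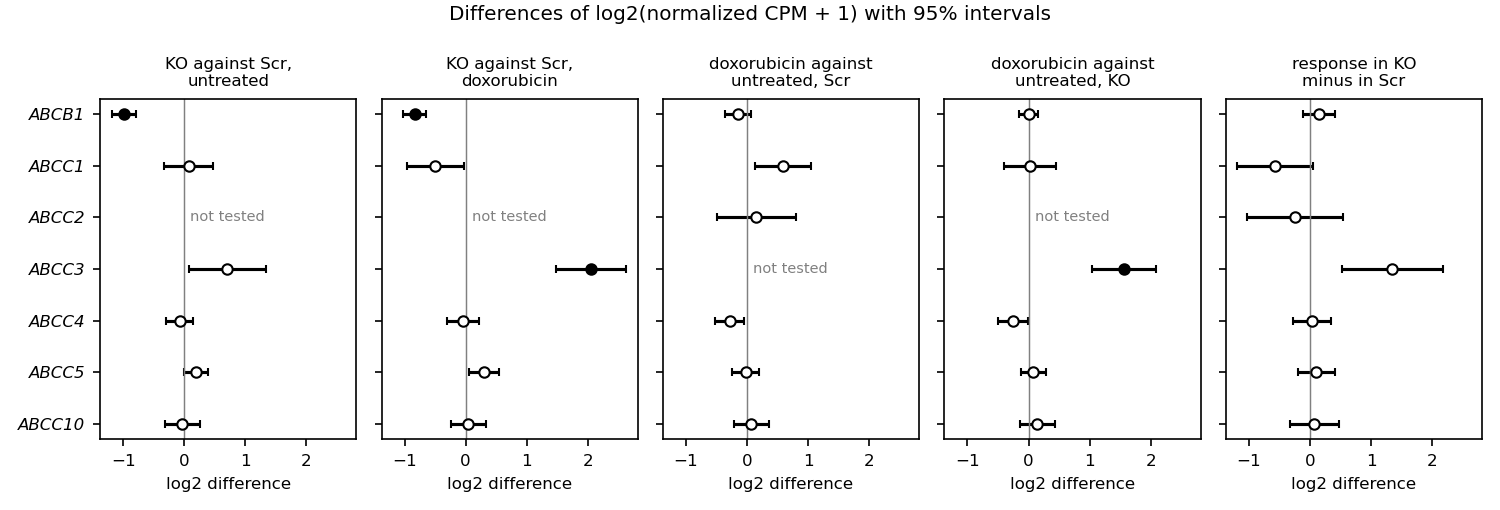
Differences of log2(normalized CPM + 1) for the 7 members in 5 comparisons, with 95% intervals from limma, and filled points for an adjusted p under 0.05. ABCB1 lies at -0.98 and -0.83 between genotypes and near 0 for the drug, and ABCC3 lies at 2.05 between genotypes after doxorubicin and at 1.56 for the drug in TRPM2 KO.

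Most of the other ABC proteins carry lipids, peptides, fatty acids or metabolites, while some act in translation or as subunits of potassium channels. Of 40 listed, 29 had a row and 22 were tested. Between genotypes 3 of 22 were lower in TRPM2 KO untreated and 3 of 22 after doxorubicin, and none was higher, beside 4.84% and 8.69% of all genes past the threshold. ABCD2, a peroxisomal importer of very long chain fatty acids, was at 28.8 ± 3.07 against 61.0 ± 5.43 normalized CPM untreated (log2 difference -1.06, adjusted p = 1.77e-06) and differed by -0.73 after doxorubicin (adjusted p = 6.16e-05 by limma). ABCG1, a cholesterol exporter, differed by -0.67 and -0.57, and ABCA12, a lipid transporter of keratinocytes, by -0.53 and -0.55. ABCB4, the phosphatidylcholine floppase of bile that lies beside ABCB1, was at 4.11 ± 2.98 against 6.69 ± 1.53 normalized CPM untreated, and its log2 difference of -0.78 did not pass (adjusted p = 0.263). The median log2 difference of the 22 was -0.07 untreated and 0.02 after doxorubicin, beside -0.01 and 0.01 for all genes.

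With doxorubicin 4 of the 22 rose and 2 fell in Scr, and in TRPM2 KO 8 rose and 2 fell, beside 12.3% and 19.6% of all genes past the threshold. ABCA1, the main exporter of cholesterol to apolipoproteins, rose by 1.72 on the log2 scale in Scr, from 2.82 ± 1.70 to 11.2 ± 4.16 normalized CPM, and by 1.88 in TRPM2 KO, from 1.90 ± 0.266 to 10.1 ± 3.73. ABCG4 and ABCG1, also sterol exporters, rose by 1.10 and 0.92 in Scr and by 1.44 and 1.02 in TRPM2 KO. ABCA2, a lipid transporter of lysosomes, rose by 0.53 in Scr and 0.42 in TRPM2 KO, and ABCE1, a ribosome recycling factor that transports nothing, fell by 0.45 and 0.38. In TRPM2 KO ABCA5 rose by 1.11 and ABCC8, the sulfonylurea receptor of potassium channels, by 1.09, while their log2 differences of 0.46 and 0.22 in Scr did not pass. The response differed between genotypes for 0 of the 22 with limma, edgeR or DESeq2, and 2 had an unadjusted p under 0.05 by limma. The median log2 response of the 22 was 0.04 in Scr and 0.24 in TRPM2 KO, beside -0.01 and 0.02 for all genes.

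**Figure D3:**
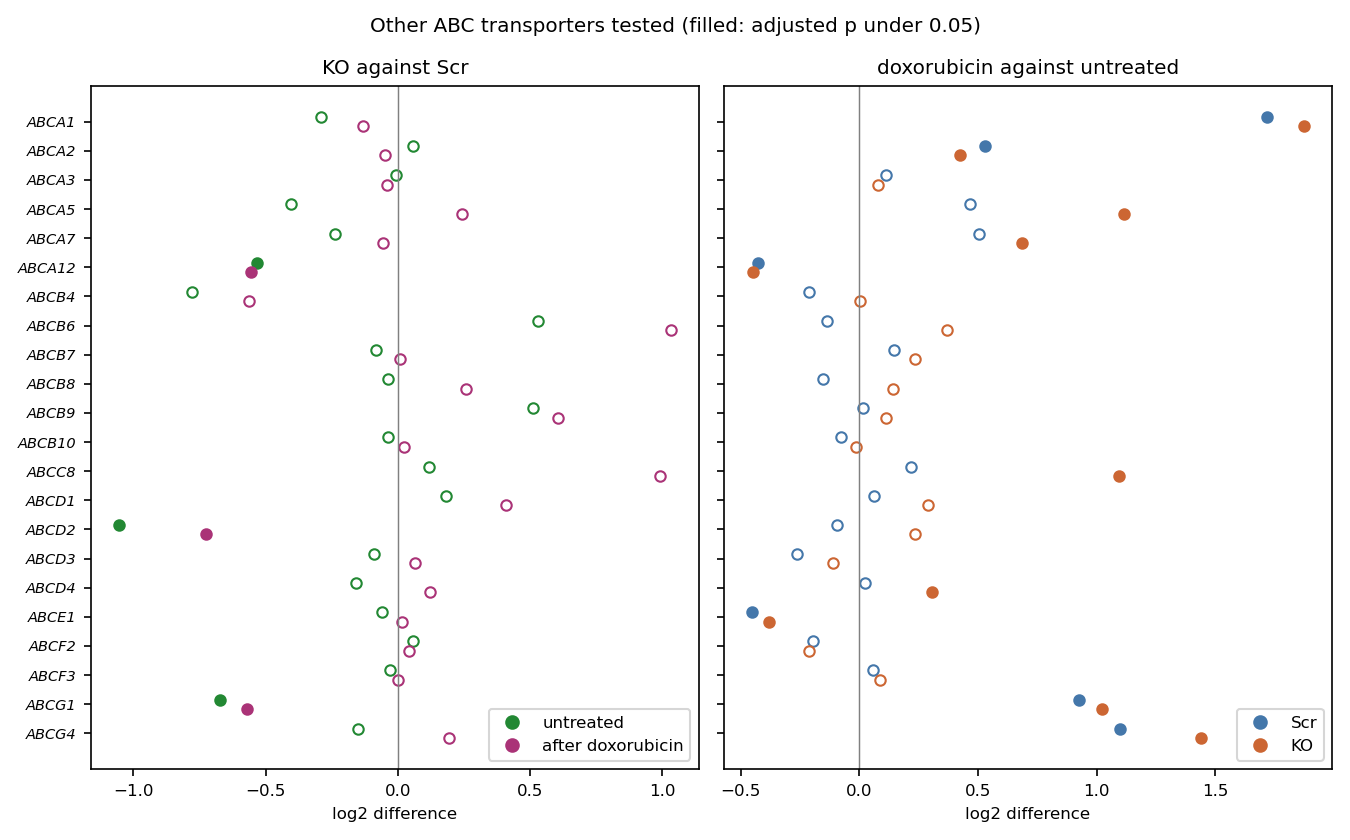
Differences of log2(normalized CPM + 1) for the 22 other ABC transporters tested, TRPM2 KO against Scr at the left and doxorubicin against untreated at the right, with filled points for an adjusted p under 0.05 by limma. At the left the filled points of ABCD2, ABCG1 and ABCA12 lie below 0, and at the right those of ABCA1 and ABCG4 lie farthest above 0 in both genotypes.

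Genes known to regulate or assist drug efflux were read from lists of their own. Of 13 transcriptional regulators tested, 2 were lower in untreated TRPM2 KO cells, PPARA (-0.35), a lipid-sensing nuclear receptor, and FOXO3 (-0.29), a forkhead factor that can act on ABCB1. After doxorubicin MYCN (-0.78), which in neuroblastoma is known to act on several ABC genes, and FOXO3 (-0.45) were lower, and none was higher. With doxorubicin MYC fell by 0.80 in Scr and HIF1A rose by 0.32. In TRPM2 KO 5 of 13 fell and 2 rose, among them MYC (-1.09), MYCN (-0.94) and PPARA (0.34). Of all genes 4.84% and 8.69% passed between genotypes, and 19.6% with doxorubicin in TRPM2 KO. The median difference of the 13 between genotypes was 0.09 untreated and -0.16 after doxorubicin.

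Among 7 tested partners that anchor or modify the pumps, MSN, the membrane-cytoskeleton linker moesin, differed most. It was at 41.1 ± 4.68 normalized CPM in untreated TRPM2 KO and 7.60 ± 1.25 in Scr cells (log2 difference 2.30, adjusted p = 3.14e-09), and differed by 2.44 after doxorubicin (adjusted p = 2.23e-08 by limma). Its relative EZR, ezrin, and the kinase PIM1 were lower in TRPM2 KO after doxorubicin, with log2 differences of -0.30 and -0.38. With doxorubicin MVP, the major vault protein, rose by 0.89 in Scr and 0.88 in TRPM2 KO, and RDX, radixin, fell by 0.37 and 0.35. MSN fell by 0.31 with doxorubicin in TRPM2 KO. The partners that passed numbered 1 untreated and 3 after doxorubicin between genotypes, beside 4.84% and 8.69% of all genes, and 2 in Scr and 3 in TRPM2 KO with the drug, beside 12.3% and 19.6%.

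Glutathione is conjugated to many substrates of MRP1 and MRP2. Of its synthesis and transfer genes, 0 of 13 passed between genotypes in untreated cells with limma, edgeR or DESeq2, and 1 had an unadjusted p under 0.05 by limma. GSS, glutathione synthetase, was higher by 0.40 in TRPM2 KO after doxorubicin, as 1 of 14 (7.14%). Both counts were no higher than the 4.84% and 8.69% of all genes, and so are no result about this list. With doxorubicin the transferase GSTA4 fell by 0.38 in Scr and by 0.38 in TRPM2 KO, GSTP1 fell by 0.24 in Scr, and GSTM2 rose by 0.58 in TRPM2 KO. These were 2 of 14 in Scr (14.3%) and 2 of 13 in TRPM2 KO (15.4%), near or below the 12.3% and 19.6% of all genes, and are likewise no result about the list. Of 6 uptake carriers tested, SLCO1A2, an organic anion transporter, was lower in TRPM2 KO, at 1.23 ± 0.455 against 5.25 ± 0.790 normalized CPM untreated (log2 difference -1.50, adjusted p = 0.000381). After doxorubicin its log2 difference was -1.10 (adjusted p = 0.00541 by limma). With doxorubicin it rose by 0.84 in TRPM2 KO, SLC22A17 rose by 0.30 in each genotype, and the nucleoside carrier SLC29A1 rose by 0.28 in TRPM2 KO. The carriers that passed were thus 1 of 6 in each comparison of genotypes, 1 of 6 with the drug in Scr and 3 of 6 in TRPM2 KO, beside the same shares of all genes.

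Neighbours of the members that passed were examined within 500 kb of the gene's ends. All 10 protein-coding neighbours of ABCB1 were tested, and 1 of them passed between genotypes in untreated cells and 2 after doxorubicin, beside 4.84% and 8.69% of all genes. ADAM22, a neuronal receptor of the LGI proteins that lies 221 kb from ABCB1, was at 487 in TRPM2 KO and 997 normalized CPM in Scr (log2 difference -1.03), and at 534 against 1022 after doxorubicin (-0.93). DBF4, the activator of the replication kinase CDC7, lies between them and was lower after doxorubicin (-0.40). RUNDC3B, which overlaps ABCB1 on the other strand, differed by -0.23 and -0.11 and did not pass. ABCB4 lies 23.2 kb from ABCB1 on the side away from ADAM22. Its differences of -0.78 and -0.56 did not pass (adjusted p = 0.263 and 0.221 by limma). The log2 differences of the neighbours ranged from -1.03 to 0.07 untreated and from -0.93 to 0.38 after doxorubicin.

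**Figure D4:**
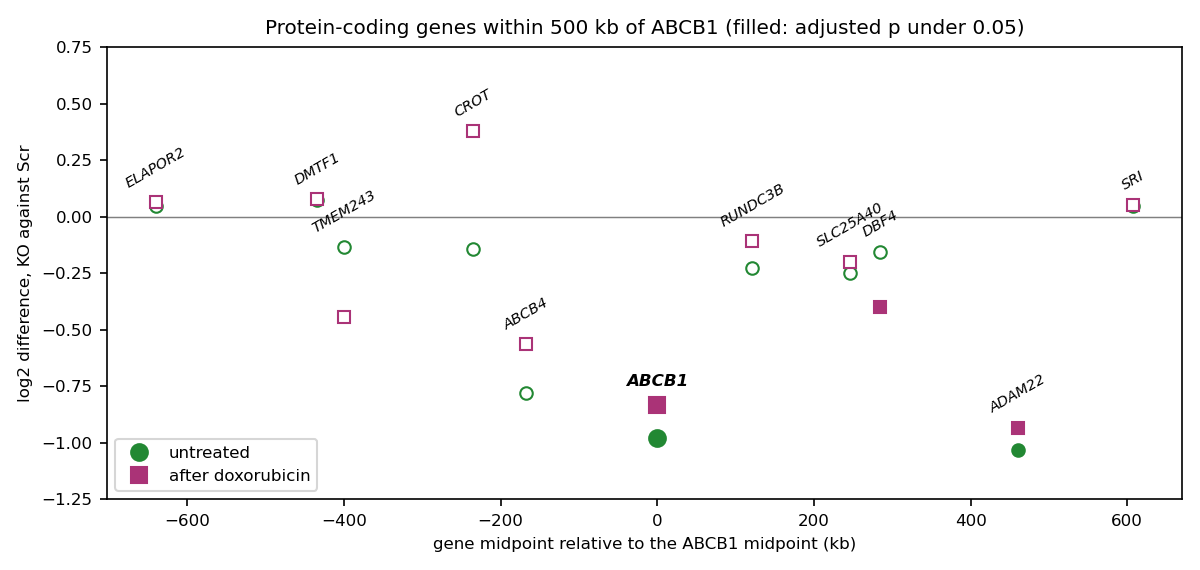
Differences of log2(normalized CPM + 1) between TRPM2 KO and Scr for ABCB1 and its 10 neighbours, by the distance of each gene's midpoint from that of ABCB1 in kb, with circles for untreated cells, squares for doxorubicin, and filled points for an adjusted p under 0.05 by limma. ADAM22 lies near the level of ABCB1, at -1.03 and -0.93, while SLC25A40, DBF4 and RUNDC3B between them lie nearer to 0. ABCB4, on the other side of ABCB1, lies at -0.78 and -0.56, with unfilled points.

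ABCC3 had 25 protein-coding neighbours, of which 19 were tested between genotypes after doxorubicin. COL1A1, a collagen chain and 1 of the mesenchymal markers, was higher in TRPM2 KO by 1.51 and MRPL27, a mitochondrial ribosomal protein, by 0.47, 2 of 19 beside 8.69% of all genes. With doxorubicin in TRPM2 KO 5 of 18 rose (MYCBPAP by 1.10, SPATA20 by 0.90, CACNA1G by 0.79, MRPL27 by 0.45 and TOB1 by 0.41), and 2 fell (LRRC59 by 0.29 and PPP1R9B by 0.21), beside 19.6% of all genes. Of these, CACNA1G, SPATA20 and TOB1 also rose in Scr, by 1.30, 0.64 and 0.43, and LRRC59 also fell there, by 0.27. MYCBPAP had a mean of 0.726 normalized CPM in untreated TRPM2 KO cells and 2.59 after doxorubicin. It could thus meet the filter of 1 normalized CPM only with treated libraries, and its call adds nothing to the 5 of 18.

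Genes with the most similar pattern over the 16 libraries were taken by Pearson's r on log2(normalized CPM + 1), among 15324 others. The points share the genotype and clone of each library, so that r is a description. For ABCB1 they were the gene ENSG00000280180 (r = 0.986), ZNF135, a zinc finger gene (r = 0.977), and GTSF1, a gametocyte factor (r = 0.966). GTSF1 was at 7.62 normalized CPM in untreated Scr cells and at 0 reads in all 4 untreated TRPM2 KO libraries, and ZNF135 at 3.83 and 0.0912. For ABCC3 they were CRIM1, a BMP-binding membrane protein (r = 0.946), TRIM55 (r = 0.944) and CCL2, a chemokine (r = 0.940). CCL2 was at 2.84 normalized CPM in untreated and 15.4 in treated TRPM2 KO cells, against 1.01 and 1.23 in Scr. ABCB1 and ABCC3 had r = -0.68 with each other over the same libraries.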

How the data were processed

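Per the submitters' processing notes, reads were handled with bcl2fastq, HISAT2 2.1.0, HTSeq and edgeR on GRCh38. Annotation and strand setting are not given in the sources used here, and the library kit was directional. The deposited values per library are a signal scaled by the authors to an effective library size (normalized CPM). Whole reads came out for 100% of values (tolerance 0.001 reads), and the factors fitted 1 normalization over all 16 libraries. The authors' deposited log2 fold changes, p-values, q-values and ranking score were not used. Symbols and positions came from GENCODE 29 (95.9% of genes).

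The members and lists were chosen with earlier results of these data known. limma 3.58.1 (R 4.3.3) was fitted to log2(normalized CPM + 1) for genes that reached 1 normalized CPM in 4 or more libraries of a comparison. Benjamini-Hochberg adjustment ran over all genes, with a threshold of 0.05. Comparisons of treatments held a clone term, those of clones a treatment term. Single members were also compared by exact permutation. Replicates of a clone and treatment are separate samples of 1 clone, and each genotype had 2 clones, so p-values measure the spread between libraries and not between many clones. Tested on simulated data with 2-fold changes in 200 genes, limma recovered 78.0% for genotypes untreated (14364 genes), 74.0% for doxorubicin in Scr (14378 genes) and 59.5% for the difference of responses (15325 genes), with 5.46%, 6.92% and 6.30% of calls false. The simulated libraries were drawn independently, with no clone effect. These shares therefore need not hold for genotypes with 2 clones each. Intervals and floors of 3 reads cover counting error or library spread only. Genes named were all members and TRPM2, per comparison up to 5 passing genes by size among the other ABC transporters and up to 4 from each other list, every passing neighbour of a passing member, and the 3 most similar genes. Some genes that this rule names are not reported here. ABCB4, RUNDC3B and other genes given with values beyond this rule were chosen after their values were seen. Alternatives used edgeR 4.0.16, DESeq2 1.42.0 and other settings.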

Additional observations from a re-analysis of the deposited data

Results flagged for a closer look

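Within each group of 4 libraries, a library was picked out where its gap to the nearest other divided by the group's range, exceeded Dixon's 95% critical value. Over 28 groups examined (7 members in 4 groups), chance would pick out about 1 in 20. ABCB1 in the first doxorubicin replicate of KO11 was at 172 normalized CPM (171.931), below the other 3 libraries of its group at 198 to 202, with a gap of 0.870 of the range. ABCC5 in the same library was at 78.3 normalized CPM, above the others at 64.8 to 67.0, with a gap of 0.841. Without that library ABCB1 and ABCC5 stayed on the same side of the threshold in the comparison of genotypes after doxorubicin.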

How the results depend on the processing

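Every alternative kept ABCB1 lower in TRPM2 KO and past the threshold, 20 of 20 without treatment (log2 difference -1.06 to -0.90) and 20 of 20 after doxorubicin (-0.98 to -0.68). ABCC3 was past it in 20 of 20 between genotypes after doxorubicin (1.81 to 3.17), a comparison it entered through the TRPM2 KO libraries alone, and in 15 of 15 for doxorubicin in TRPM2 KO (1.44 to 2.13), and in none of 23 for the difference of the responses (1.06 to 1.79, adjusted p 0.187 to 0.642). For doxorubicin in Scr the number of members past the threshold changed from 0 to 1 (ABCC1) with DESeq2, and over the fits that left out 1 library it lay between 0 and 1. Between genotypes after doxorubicin it changed from 2 to 3 (ABCC5 added) without clone Scr13, and over the fits that left out 1 library it lay between 2 and 3.

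Replicate numbers did not pair the samples, with correlations of deviations of -0.10 to 0.12. With a replicate block the members past the threshold numbered 1 without treatment and 2 after doxorubicin, as without it, and genes past the threshold for the difference of responses rose from 4 to 25. Counts over all genes ranged from 362 (without clone Scr13) to 862 (DESeq2) around 695 between genotypes untreated, and from 574 (without clone KO11) to 1510 around 1266 after doxorubicin. For doxorubicin in Scr they ranged from 831 (no filter on low values) to 2116 around 1774, and in TRPM2 KO from 1913 to 3005 around 2846. For the difference of responses the range was 1 to 58 around 4, between Scr clones 0 to 32 around 5, and between KO clones 0 to 93 around 20. Fits without a clone rest on 1 clone of a genotype. ABCC2 and ABCC3 in Scr rested on few reads, which limits what could be seen of them.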
